A study of Mus musculus with 6 samples.

Results

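Cell cycle and DNA replication genes were examined in resting liver of Nrf2 knockout and wild-type mice. The set holds 40 genes chosen by name for their roles in the cell cycle, with earlier results of these data known. The members are the probe sets that the array annotation gives to exactly 1 of these genes. In all, 39 of the 40 genes had such a probe set, and they had 95 probe sets among the 45037 on the array, which stand for 18193 named genes. Ccnb1, the gene of the mitotic cyclin B1, had none and was not analysed here. The knockout group was 3 liver RNA pools from mice labelled Nrf2 ko, and the wild-type group was 3 pools labelled Nrf2 wt. All were C57B/SV129 mice of 10 weeks, and every pool held RNA of 3 animals. The labels name no treatment, injury or surgery, and they give neither the sex of the mice nor the allele that was deleted. The title of the series concerns liver regeneration after loss of Nrf2. These arrays hold liver for which no regeneration is labelled, so they bear on the cell cycle genes at rest only. The pools are called biological replicates, whether pools shared animals is not stated, so a p-value here speaks of the spread among these pools.

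A cell that divides passes from G1 through DNA synthesis (S phase) and G2 into mitosis. D-type cyclins with Cdk4 or Cdk6, and then E-type cyclins with Cdk2, inactivate the retinoblastoma protein Rb1 and release E2F factors, which drive genes of DNA replication. Before S phase the proteins Cdc6 and Cdt1 load the ring of Mcm2 to Mcm7 onto replication origins, and later Cdk1 with A- and B-type cyclins drives mitosis. Hepatocytes of an adult liver are almost all out of the cycle, and they re-enter it together after tissue loss. Nfe2l2 is the gene of Nrf2, which turns on genes of antioxidant defence and detoxification.

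The mean probe set intensity of the 6 arrays, trimmed by 2% at each end, ran from 92.0 to 131. Its two-sided exact permutation p between genotypes was 0.5, where 3 against 3 cannot go under 0.1. The brighter Nfe2l2 probe set lay between 5.74 and 7.40 in the knockout pools and between 598 and 696 in the wild-type pools, so that the arrays matched their genotype labels. The dimmer Nfe2l2 probe set overlapped, with 24.4 to 27.9 in the knockout and 20.2 to 34.4 in the wild type. Its log2 difference was 0.14 ± 0.22 (SE). All 11 hepatocyte marker genes measured, such as the albumin gene Alb and the clotting gene Fgb, were far above background on every array. Tests were made on 22519 probe sets bright enough to pass a filter at the median level, and 32 of them, 0.142%, passed a limma adjusted p of 0.05. By gene, with each gene taken at its brightest probe set, 16 of 11102 passed, which is 0.144%. With 3 arrays a genotype, their number sets the precision.

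Most members were measurable in resting liver, and those that were not belong mainly to mitosis. Background was set by 86 probe sets of olfactory, vomeronasal and taste receptor genes, which liver is not known to express. A probe set was placed at background where both genotype means lay under the 95th percentile of those probe sets, 4.31 on the normalized log2 scale or an intensity of 14.6. By this rule 9 of the 39 measured members lay at background at each of their probe sets, and 36 of the 95 probe sets did so. The share at background was 33.7% over all named genes and 43.8% over all probe sets. The 9 were E2f1, Cdc6, Tyms, Foxm1, Plk1, Aurka, Aurkb, Bub1 and Birc5, of which 5 are genes of the mitotic spindle or of mitotic exit. In that role group Cdc20 and Mki67 alone were above the limit. Nearest above it were Ccnb2, with mean log2 values of 4.37 in both genotypes, and Top2a, with a knockout mean of 4.45 and a wild-type mean of 4.32. Nearest under it, by the higher of the genotype means, were Birc5, with 3.74 and 4.07, E2f1, with 4.04 and 3.91, and Foxm1, with 3.92 and 4.02. All 8 G1 cyclin and kinase genes and all 3 inhibitor genes were above it. The filter for testing lies a little higher, at 4.48, and also held back Top2a and Ccnb2, which left 28 members and 55 of their probe sets tested. The intensity of a probe set also depends on how well its probes bind, so a probe set under the limit shows a signal no brighter than unexpressed genes, and levels of different genes were not compared.

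**Figure D1:**
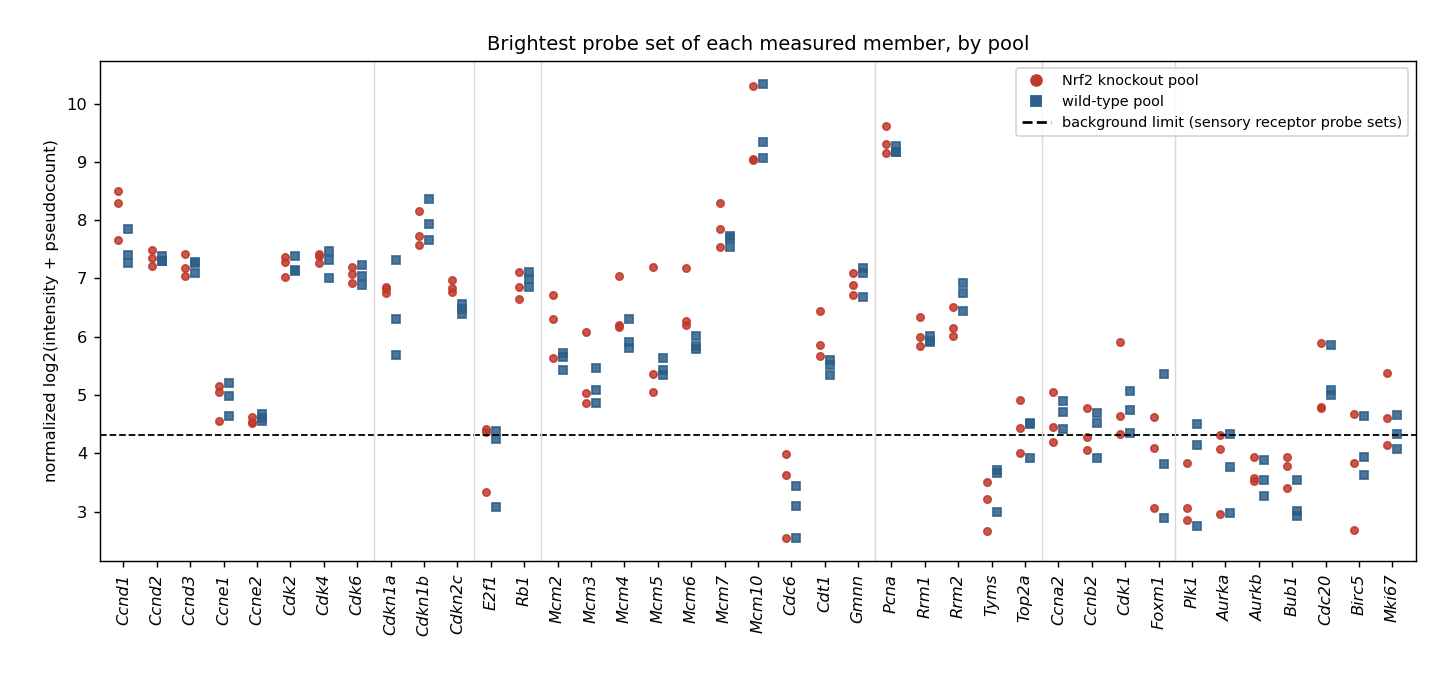
Normalized log2(intensity + pseudocount) at the brightest probe set of each of the 39 measured members, with a point for each of the 3 knockout pools (circles) and 3 wild-type pools (squares). The dashed line is the background limit of 4.31, grey lines part the role groups, and heights may be compared within a gene and with the limit, not between genes.

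No member differed between the genotypes after adjustment over all probe sets. Of the 55 member probe sets tested, 0 passed a limma adjusted p of 0.05, against 0.142% of all probe sets, and the lowest adjusted p was 0.403, at a probe set of Ccnd1. With no filter, which brings in the dim members, 0 of 95 passed and the lowest adjusted p was 0.481. By gene, 19 of the 28 tested members were higher in the knockout and 9 lower, where 51.4% of all tested genes were higher, and with median centring of the arrays 15 of the 28 were higher. The median log2 difference, knockout minus wild type, was 0.10 over the 28 tested members and 0.09 over all 39 measured, beside 0.01 and 0.00 over all named genes. An unadjusted limma p under 0.05 was reached at the brightest probe set by 6 tested members. Of them 5 were higher in the knockout (Ccnd1, Cdkn2c, Mcm2, Mcm6 and Cdt1), against 4.07% of all tested genes in that direction, and Rrm2 was lower, against 4.15%. By probe set, 7 of the 55 were higher and 1 lower at that p, against 3.75% and 3.89% of all probe sets tested. Most single pools mattered for the count of members: without knockout pool 2 it was 1 (Cdkn2c), and without knockout pool 1 it was 3 (Mcm2, Mcm6 and Rrm2). Without knockout pool 3 it was 5 (Ccnd1, Cdkn2c, Cdt1, Mcm6 and Mcm7). It was 2 without wild-type pool 1 (Cdkn2c and Mcm6) and 2 without wild-type pool 2 (Cdkn2c and Rrm2). Without wild-type pool 3 it was 2 (Ccnd1 and Cdkn1a). Mcm7 and Cdkn1a were not among the 6 members reached with all pools. Cdkn2c, Mcm6 and Cdt1 were the 3 tested members whose genotypes did not overlap at the brightest probe set. All 3 were higher in the knockout, as 7.38% of all tested genes were without overlap, and 0 members were lower without overlap, against 6.55%.

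The intervals show what sizes of difference the data leave possible. The 95% interval of the log2 difference lay within 1 in either direction for 19 of the 28 tested members and within 0.5 for 9 of them. The narrow ones include the G1 genes Ccnd2, Ccnd3, Cdk2, Cdk4 and Cdk6. The 9 that reached beyond 1 were Ccnd1, Cdkn1a, Mcm2, Mcm4, Mcm5, Mcm6, Mcm10, Cdk1 and Mki67, so for these a 2-fold difference lay inside the interval. Fold changes are on the log2(intensity + 5.26) scale, which understates those of dim genes.

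**Figure D2:**
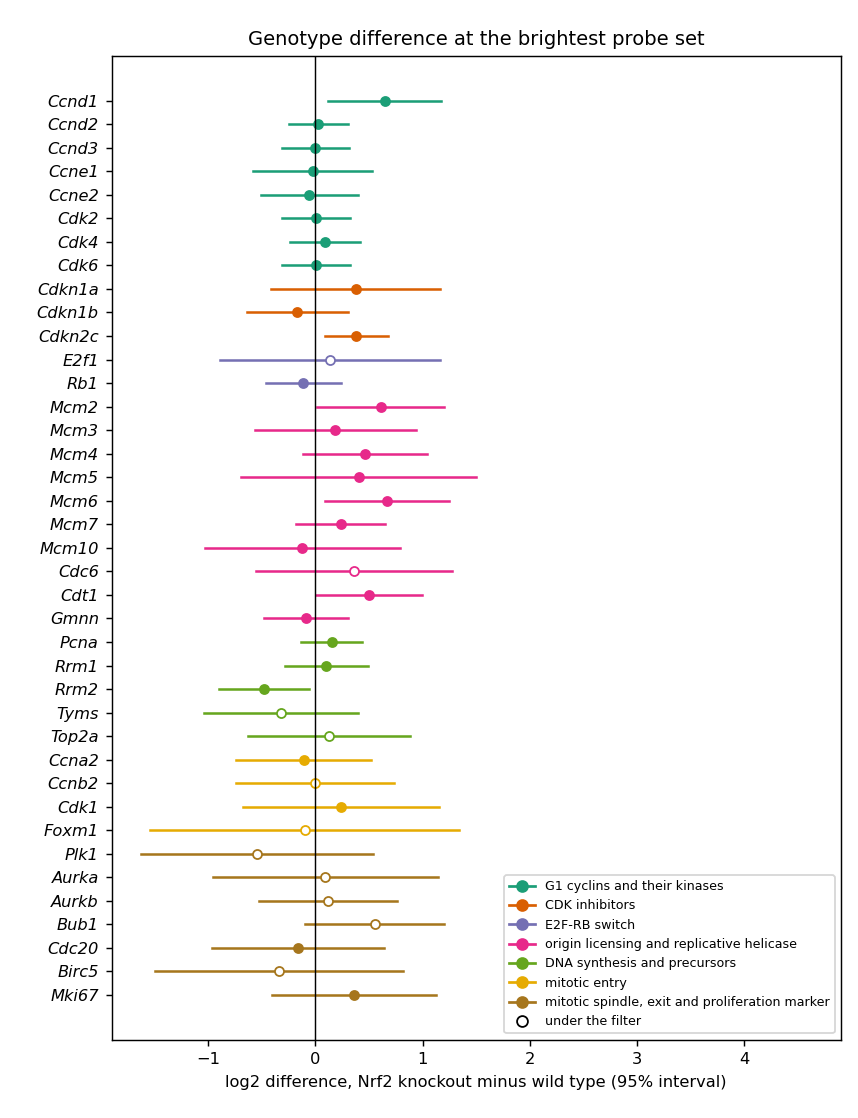
Log2 difference (knockout minus wild type) at the brightest probe set of the 39 measured members, with its unadjusted 95% interval from limma, coloured by role. Open circles mark the 11 members under the filter, whose intervals come from the fit without it, and the intervals of Ccnd1, Cdkn2c, Mcm2, Mcm6, Cdt1 and Rrm2 do not reach 0.

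Among the G1 cyclins and their kinases, Ccnd1 had the largest difference at the brightest probe set, and the other 7 lay close to 0 there. Ccnd1 encodes cyclin D1, the cyclin that couples growth signals to cell cycle entry in hepatocytes. Its brightest probe set had normalized intensities of 310.1, 357 and 197 in knockout pools 1 to 3 and of 164, 149 and 225 in wild-type pools 1 to 3. Further values are normalized intensities in this pool order. Knockout pools 1 and 2 were above all wild-type pools, while knockout pool 3 lay below wild-type pool 3. The log2 difference was 0.65 ± 0.23 (SE, n = 3 per genotype), 1.57-fold, with a limma adjusted p of 0.594. A second Ccnd1 probe set had 257, 269.7 and 221 in the knockout against 147, 161 and 199 in the wild type, and here the genotypes did not overlap. Its log2 difference was 0.55 ± 0.14, with an unadjusted limma p of 0.00429 and an adjusted p of 0.403. The third probe set of the gene was at 0.25 ± 0.17 with overlapping pools, so all 3 pointed the same way.

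The other cyclin D genes had differences near 0. Ccnd2 was at 0.03 ± 0.12 log2 and Ccnd3 at 0.00 ± 0.14 at their brightest probe sets. Ccnd2 had 7 probe sets, 2 with a positive difference and 5 with a negative one, from -0.14 to 0.10. At its next brightest the genotypes did not overlap, with 149.7, 143.3 and 128.4 in the knockout against 152.7, 152.4 and 152.3 in the wild type. The log2 difference there was -0.12 ± 0.12. Ccne1 and Ccne2, the cyclins that act with Cdk2 at the entry to S phase, were dim, near intensities of 18 to 32 and 18 to 20, and their log2 differences were -0.02 ± 0.24 and -0.06 ± 0.20. Cdk2 was at 0.00 ± 0.14. Cdk4, the partner of the D-type cyclins, read 165, 163 and 149 in the knockout against 124, 172 and 154 in the wild type. These overlapped throughout, with a log2 difference of 0.09 ± 0.14 and an interval from -0.24 to 0.42. Its 3 probe sets did not share a direction, 2 being positive. Cdk6, the other kinase of the D-type cyclins, was at 0.01 ± 0.14 at its brightest probe set and at 0.03 ± 0.21 at the next. A dim Cdk6 probe set under the filter had 3.10, 14.8 and 15.2 in the knockout against 13.5, 35.1 and 21.7 in the wild type. These overlapped around the background limit, and in the fit without a filter the log2 difference was -0.86 ± 0.44, with an unadjusted limma p of 0.0815 and an adjusted p of 0.815.

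The CDK inhibitor genes differed among themselves, and none passed. Cdkn2c encodes p18, which blocks Cdk4 and Cdk6. It read 120, 109 and 104 in the knockout against 89.3, 83.4 and 78.6 in the wild type. Every knockout pool was above every wild-type pool, the log2 difference was 0.38 ± 0.13, 1.30-fold, and the adjusted p was 0.567. With any single pool left out the difference stayed between 0.32 and 0.42, the narrowest such range of the 6 members named above. Cdkn1a encodes p21, a p53 target that arrests damaged cells and restrains hepatocyte division. It had 108, 103 and 110.4 in the knockout against 73.7, 46.0 and 154 in the wild type. The knockout pools were close to each other and lay inside the wide range of the wild-type pools. Its log2 difference was 0.38 ± 0.35, with an interval from -0.41 to 1.17. It was 0.00 without wild-type pool 2 and 0.82 without wild-type pool 3. A second Cdkn1a probe set, nearly as bright, was at 0.11 ± 0.55 with overlapping pools. Cdkn1b, the gene of the inhibitor p27, was at -0.17 ± 0.21 and its second probe set at -0.22 ± 0.26.

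Of the E2F and retinoblastoma pair, Rb1 was measured and E2f1 lay at background. Rb1, which holds E2F factors inactive in resting cells, read 110.1, 133 and 95.1 in the knockout against 122, 132 and 111 in the wild type. These overlapped, at a log2 difference of -0.11 ± 0.15. The brightest E2f1 probe set had 16.1, 15.5 and 4.86 in the knockout against 3.16, 13.8 and 15.7 in the wild type, on both sides of the limit of 14.6 in both genotypes. E2f1 encodes the activating E2F of S phase entry, and no difference could be read at this level (0.14 ± 0.45 in the fit without a filter).

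The origin licensing and helicase genes were mostly brightest in knockout pool 2. Because E2F factors are known to act on the promoters of these genes, the sequence before the start of transcription is shown for those whose promoter holds an E2F motif and that are described by pool below. The motif was any of TTTCCCGC, TTTGGCGC, TTTCGCGC and TTTGCCGC on either strand, where matches may overlap, within the 250 bases before the start. It was found in 1.86% of 32851 such windows in the mouse and in 6 of the 31 members with a promoter entry: Cdc6, Cdk1, Cdk2, Mcm5, Mcm6 and Mcm7. The sequences are RefSeq's, on assembly GRCm38.p6, and each gives the 170 bases before the start, 5′ to 3′ on the strand of the gene, with the E2F matches in capitals. They lie at chr8:75109339-75109508 on the plus strand for Mcm5, chr1:128359706-128359875 on the minus strand for Mcm6, chr5:138171884-138172053 on the minus strand for Mcm7 and chr10:69352913-69353082 on the minus strand for Cdk1.
Mcm5: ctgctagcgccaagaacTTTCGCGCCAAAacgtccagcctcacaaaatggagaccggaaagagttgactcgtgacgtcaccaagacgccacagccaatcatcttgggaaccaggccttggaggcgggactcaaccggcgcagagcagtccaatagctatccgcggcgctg
Mcm6: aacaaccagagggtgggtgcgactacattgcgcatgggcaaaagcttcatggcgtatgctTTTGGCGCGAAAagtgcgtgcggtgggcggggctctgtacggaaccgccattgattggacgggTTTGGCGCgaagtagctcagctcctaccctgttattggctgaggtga
Mcm7: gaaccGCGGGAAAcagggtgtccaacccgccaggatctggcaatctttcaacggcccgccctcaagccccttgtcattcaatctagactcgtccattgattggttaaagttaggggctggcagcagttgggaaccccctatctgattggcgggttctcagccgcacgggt
Cdk1: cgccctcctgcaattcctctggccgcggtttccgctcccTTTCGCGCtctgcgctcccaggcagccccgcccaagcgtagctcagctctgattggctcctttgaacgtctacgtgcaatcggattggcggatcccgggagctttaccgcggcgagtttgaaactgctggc
Mcm6 held 3 matches, 2 of them overlapping, Mcm5 held 2 that overlap, and Mcm7 and Cdk1 held 1 each. These promoters were picked after the values of the genes were seen. A match is a description of the letters, and binding was not measured here.

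Mcm2 to Mcm7 encode the ring-shaped helicase that unwinds DNA at the fork, and all 6 were brightest in knockout pool 2. Mcm5 read 36.1, 141 and 28.1 in the knockout against 38.1, 35.5 and 44.2 in the wild type. Knockout pool 2 stood more than 3-fold above every other pool, and the other knockout pools lay within or under the wild-type range. Its log2 difference was 0.40 ± 0.48, with 0.887 as the adjusted p. Mcm6 had 68.5, 139 and 71.8 in the knockout against 59.1, 50.3 and 51.8 in the wild type, so that here the genotypes did not overlap. The log2 difference of Mcm6 was 0.67 ± 0.25, 1.59-fold, with an adjusted p of 0.607. A second tested Mcm6 probe set overlapped, with 38.2, 94.9 and 41.8 in the knockout against 30.4, 45.9 and 46.4 in the wild type, at 0.37 ± 0.32. Mcm2 had 44.6, 99.4 and 73.4 in the knockout against 47.5, 38.1 and 45.2 in the wild type. Knockout pool 1 of Mcm2 lay among the wild-type pools, and the log2 difference was 0.61 ± 0.26, 1.53-fold, with an adjusted p of 0.638. A second tested Mcm2 probe set also overlapped, at 0.31 ± 0.41.

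The other helicase subunits showed the same bright pool. Mcm4 had 68.2, 127 and 66.3 in the knockout against 50.5, 73.3 and 55.1 in the wild type, a log2 difference of 0.46 ± 0.26. Mcm3 had 23.9, 62.7 and 27.7 in the knockout against 28.8, 24.0 and 39.0 in the wild type, a log2 difference of 0.19 ± 0.33. Mcm7 had 226, 308 and 181 in the knockout against 182, 206 and 203 in the wild type, a log2 difference of 0.24 ± 0.18, and all 4 of its probe sets were positive. In Mcm3, Mcm4 and Mcm7 alike the knockout and wild-type pools overlapped. A dimmer probe set of Mcm3 had a log2 difference of 1.17 ± 0.50 with intensities of 28.7, 43.2 and 19.2 against 21.6, 1.35 and 14.5, and its wild-type pool 2 lay far under the background limit. A dim probe set of Mcm6, at background in both genotypes, had the lowest unadjusted p of all member probe sets in the fit without a filter, 0.00316. The median log2 difference of Mcm2 to Mcm7 was 0.43 with all pools and 0.11 without knockout pool 2. Without that pool Mcm3 was at -0.19 ± 0.25 and Mcm5 at -0.26 ± 0.21, below the wild type, while Mcm2 was at 0.36 ± 0.24 and Mcm6 at 0.36 ± 0.16. Mcm4 was then at 0.18 ± 0.19 and Mcm7 at 0.04 ± 0.14.

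The loading factors around the helicase differed among themselves. Cdt1, which brings the helicase to origins, read 52.6, 81.2 and 45.7 in the knockout against 40.4, 43.3 and 35.6 in the wild type. Every knockout pool was above every wild-type pool, with knockout pool 2 again the brightest, and the log2 difference was 0.50 ± 0.22, 1.41-fold (adjusted p = 0.649). Without knockout pool 2 it was 0.28. A second tested Cdt1 probe set overlapped, with 13.7, 45.8 and 15.6 in the knockout against 18.3, 25.2 and 9.46 in the wild type. Its log2 difference was 0.31 ± 0.42. Gmnn encodes geminin, the inhibitor of Cdt1, and was at -0.09 ± 0.17 with overlapping pools. Cdc6, the other loading factor, lay at background in all 6 pools. Mcm10, a fork protein that is not part of the ring, had a pattern of its own at its brightest probe set, with 523, 519 and 1262 in the knockout against 530.1, 646 and 1294 in the wild type. There the third pool of each genotype was bright, and the log2 difference was -0.12 ± 0.40. A second Mcm10 probe set, near the background limit, was instead highest in knockout pool 2, at 25.4. The third probe set of the gene lay under the limit in all pools, with 5.95 and 4.84 in the third pools and 0.743 to 2.91 in the others.

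**Figure D3:**
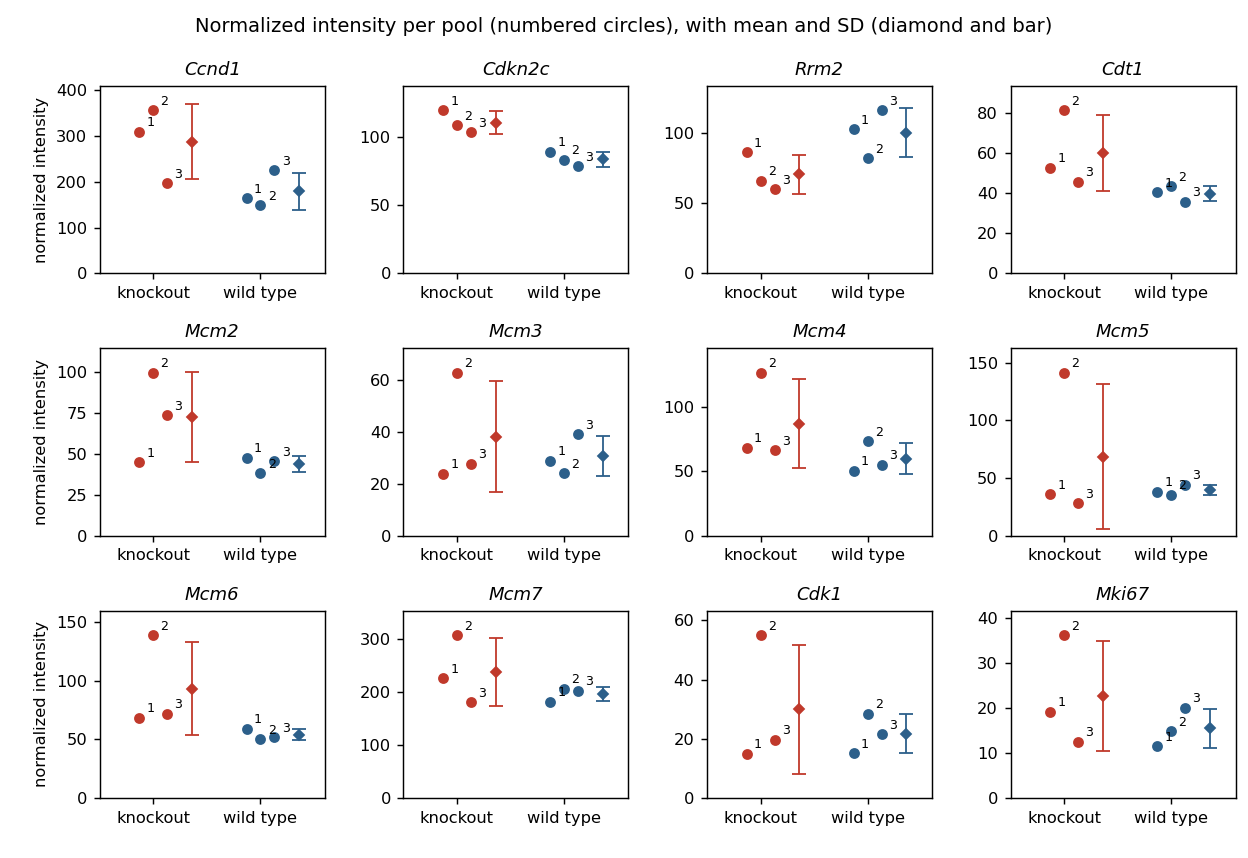
Normalized intensity of the brightest probe set in each pool (numbered circles) for 12 members, with the mean and SD of 3 pools per genotype (diamond and bar). Knockout pool 2 is the highest of the 6 pools for Mcm2 to Mcm7, Cdt1, Cdk1, Mki67 and Ccnd1, and each knockout pool lies below the wild-type mean for Rrm2.

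Genes of DNA synthesis and its precursors included the member with the largest negative difference among those tested. Rrm2 encodes the S phase subunit of ribonucleotide reductase, which makes deoxynucleotides. Its brightest probe set read 86.3, 65.8 and 59.7 in the knockout against 103, 82.0 and 116 in the wild type. Knockout pool 1 lay above wild-type pool 2, so the genotypes overlapped by a single pair of pools. The log2 difference was -0.48 ± 0.18, 1.39-fold lower, with an unadjusted limma p of 0.0305 and an adjusted p of 0.607. The other 2 probe sets of Rrm2 were at -0.56 ± 0.27 and -0.50 ± 0.27, so that all 3 were negative, while in knockout pool 2 Rrm2 was not bright. Rrm1, the large subunit of the same enzyme, was at 0.10 ± 0.17.

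The promoter of Rrm2 holds the core letters of an NRF2 binding element, and it is shown because Nrf2 is the factor removed. It was picked among the members with these letters after its values were seen. The letters searched were TGACNNNGC on either strand, found in 10.2% of the 32851 windows of 250 bases and in 7 of the 31 members with an entry: Bub1, Ccnb1, Ccnd3, Cdc6, Cdk4, Pcna and Rrm2. The 170 bases before the start of Rrm2 lie at chr12:24708084-24708253 on the plus strand of GRCm38.p6, from RefSeq, with the match in capitals.
Rrm2: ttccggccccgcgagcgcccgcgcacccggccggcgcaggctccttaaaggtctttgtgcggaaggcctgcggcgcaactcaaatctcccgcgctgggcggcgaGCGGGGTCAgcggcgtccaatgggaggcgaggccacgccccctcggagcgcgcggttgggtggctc
Of the others with these letters that were tested, Pcna, Ccnd3 and Cdk4 had log2 differences of 0.15, 0.00 and 0.09.

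Pcna, the sliding clamp of the DNA polymerases, read 567, 779.6 and 628 in the knockout against 615, 569.6 and 573 in the wild type. Knockout pool 2 was again the brightest and the pools overlapped, with a log2 difference of 0.15 ± 0.13 and an interval from -0.13 to 0.44. Without that pool it was 0.03. Top2a, the topoisomerase that untangles replicated DNA, had 10.8, 24.9 and 16.3 in the knockout against 9.87, 17.8 and 17.6 in the wild type. These lay on both sides of the background limit in both genotypes. Tyms, which makes thymidylate, was at background at each of its 4 probe sets.

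The genes of mitotic entry were dim, and Cdk1, Ccna2 and Ccnb2 were brightest in knockout pool 2 and Foxm1 in wild-type pool 2. Cdk1, the kinase that drives mitosis, read 14.9, 55.1 and 19.7 in the knockout against 15.1, 28.5 and 21.5 in the wild type. Apart from knockout pool 2 the pools of the genotypes overlapped. The log2 difference was 0.24 ± 0.40 with all pools and -0.23 ± 0.29 without knockout pool 2, so its sign rests on that pool. Ccna2, the cyclin of S phase and G2, had 16.5, 27.9 and 13.1 in the knockout against 16.03, 21.0 and 24.7 in the wild type, a log2 difference of -0.11 ± 0.28. Ccnb2, a mitotic cyclin under the filter, had 11.4, 22.0 and 14.1 against 9.81, 17.6 and 20.4. Foxm1, the factor that switches on mitotic genes, had 3.07, 11.8 and 19.4 in the knockout against 2.16, 35.996 and 8.78 in the wild type. Both genotypes of Foxm1 averaged under the limit, and the pools varied more than 6-fold within each.

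Among genes of the spindle, mitotic exit and proliferation, Mki67 and Cdc20 were tested and neither passed. Mki67 encodes the proliferation marker Ki-67, and read 19.2, 36.2 and 12.5 in the knockout against 11.5, 14.9 and 20.0 in the wild type. The signal crossed the background limit in both genotypes, and knockout pool 2 was the highest of the 6. Its log2 difference was 0.36 ± 0.34 with all pools and 0.03 without knockout pool 2, where it was too dim to be tested. Cdc20, which activates the anaphase-promoting complex, had 22.5, 54.0 and 22.0 in the knockout against 26.9, 28.6 and 52.5 in the wild type, so that a pool of each genotype was bright. The log2 difference of Cdc20 was -0.16 ± 0.35. Plk1, Aurka, Aurkb and Bub1, kinases of the spindle and its checkpoint, and Birc5, the chromosomal passenger gene of survivin, lay at background.

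The pools were then compared over all 28 tested members. Knockout pool 2 was the highest of the 6 pools for 15 of them, where 23.5% of all tested genes were highest in that pool. It was highest for 13 of the 16 tested members of replication and mitosis, the exceptions being Mcm10, Gmnn and Rrm2, and for 1 of the 8 G1 cyclin and kinase genes. Measured as the deviation from the mean of the 6 pools, the median over those 16 members was 0.68 log2 in knockout pool 2 and from -0.22 to -0.08 in the other 5 pools. The median over all tested genes was 0.02 in that pool. For the G1 genes it was -0.08 there. The grouping into 16 members and the attention to this pool were chosen after the values were seen, and no test was made of them.

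**Figure D4:**
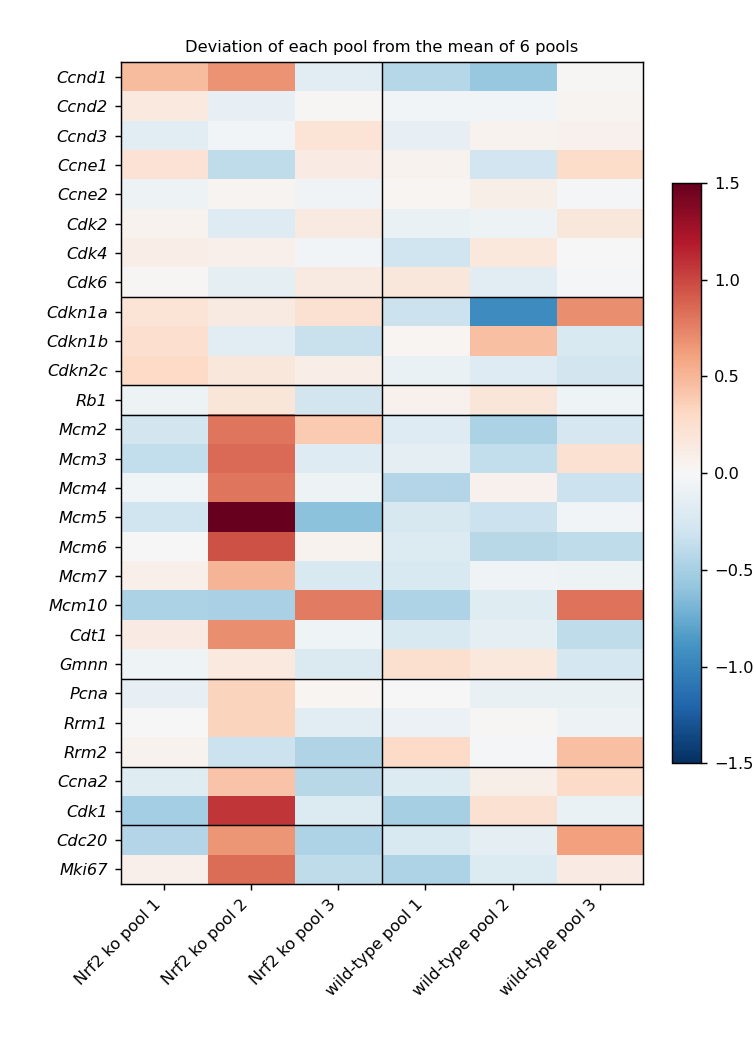
Deviation of each pool from the mean of the 6 pools, in log2 units, at the brightest probe set of the 28 tested members; red is above the mean and blue below, and black lines part the role groups and the genotypes. Red marks knockout pool 2 for Mcm2 to Mcm7, Cdt1, Pcna, Ccna2, Cdk1, Cdc20 and Mki67, and Mcm10 is red in the third pool of both genotypes.

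Other values also varied among the pools, not all of them with knockout pool 2, and their part in the results was not tested. In liver RNA a change in the share of a cell type and a change of RNA per cell cannot be told apart. The summed intensity of 6 general leukocyte markers such as Ptprc was 1126, 1148 and 785 in the knockout against 858, 903 and 837 in the wild type, so knockout pools 1 and 2 were high. That of 9 neutrophil genes, 5 of them at background, was 273, 283 and 173 against 147, 179.8 and 239.8. That of 9 lymphocyte genes, 6 of them at background, Cd3d, Cd3e and Cd3g included, was 274, 233 and 118 against 349, 155 and 114. Ighm alone held much of this sum. Its deposited intensity was 125 in knockout pool 1 and 282 in wild-type pool 1, against 39.0 to 57.7 in the rest. Cd79b and Ms4a1 were instead highest in knockout pool 2, at deposited intensities of 40.9 and 31.1. The 10 stellate cell and fibroblast genes were all higher in the knockout, where 51.4% of all tested genes were higher. Their sums were 3900 to 4078 against 3266 to 3638. The sums of 11 hepatocyte genes did not overlap either, with 101200 to 102020 in the knockout against 97663 to 98109 in the wild type. Nor did those of 10 sinusoidal endothelial genes, with 2909 to 2955 against 2867 to 2874. All these sums are of quantile-normalized values, and whether they part under other scalings was not tested. Of the hepatocyte genes 7 were higher in the knockout and 4 lower. In deposited intensities the genotypes overlapped at Apoa1, with 15598 to 16555 in the knockout against 16034 to 16405. They also overlapped at Alb, with 9941 to 10820 against 10703 to 11892. Sums of the 10 Kupffer cell genes overlapped, with 5978 to 7763 against 5951 to 7061. Among the arrays, knockout pool 2 had the lowest ratio of 3′ to 5′ signal at the Gapdh controls, 0.725 against 0.756 to 0.793 on the other 5. The same ratio of actin was higher in each knockout pool than in each wild-type pool, 1.97 ± 0.03 against 1.86 ± 0.08 (SD, n = 3), with an exact permutation p of 0.1.

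Other genes of the cell cycle gave no call either. In 6 lists 195 further genes were named, of which 190 were measured and 138 tested, and 0 passed a limma adjusted p of 0.05, the lowest being 0.296. Of the 138, 86 were higher in the knockout and 52 lower, where 51.4% of all tested genes were higher. The median log2 difference was 0.05. An unadjusted limma p under 0.05 was reached by 6 that were higher, against 4.07% of all tested genes. It was reached by 3 that were lower, against 4.15%.

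Replication origin and fork genes came closest to the members in role. Of 35 tested, 23 were higher in the knockout and 12 lower, at a median of 0.06, and none had an unadjusted p under 0.05. Prim1, the primase that starts each new strand, was at 0.35 ± 0.18, and Dbf4, the activator of the origin kinase Cdc7, at 0.41 ± 0.22, both brightest in knockout pool 2. Pole2, a subunit of the leading-strand polymerase, was at 0.39 ± 0.24 and brightest in knockout pool 3. The clamp loader gene Rfc1 was at -0.24 ± 0.15 and brightest in wild-type pool 2. Over the 35 genes the median deviation in knockout pool 2 was 0.13 log2, beside 0.68 for the 16 members above. Of 14 nucleotide supply and S phase genes 7 were higher and 7 lower. Tk1, thymidine kinase, was at 0.50 ± 0.19 and the nucleotide pyrophosphatase gene Dctpp1 at 0.36 ± 0.12, the pools of Dctpp1 not overlapping. Tmpo and Hells were lower, at -0.23 ± 0.14 and -0.46 ± 0.29.

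Many mitosis genes were too dim to test. Of 63 measured, 22 lay at background, beside 33.7% of all named genes, and 28 were tested, 20 of them higher and 8 lower, and the median was 0.06. Cks1b, a small protein that binds cyclin-dependent kinases, was at -0.48 ± 0.15, with intensities of 466, 531 and 478 in the knockout against 698, 847 and 544 in the wild type, which did not overlap. Ccnf was at -1.13 ± 0.46, where wild-type pool 3 stood alone at 192 against 24.6 to 58.3 in the other 5 pools. Ckap2, a spindle protein gene, was at 0.60 ± 0.25 and the centrosome kinase gene Nek2 at 0.53 ± 0.24, both brightest in knockout pool 2. Over the 28 tested genes the median deviation in that pool was 0.25 log2.

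The regulators upstream gave differences of both signs. Of 16 E2F, RB and DREAM genes (DREAM is the complex that represses cell cycle genes at rest), 7 were higher and 9 lower, the dimerisation partner genes Tfdp1 and Tfdp2 being at -0.35 ± 0.16 and 0.28 ± 0.13. The chromatin subunit gene Rbbp4 was at -0.19 ± 0.08 and the ubiquitin ligase gene Fbxw7 at 0.23 ± 0.15. Of 22 other cyclin, kinase and inhibitor genes 15 were higher and 7 lower, led by Ccnl1, a cyclin of RNA splicing, at 0.35 ± 0.13. Of 23 p53 target and growth arrest genes 14 were higher and 9 lower, and the median was 0.10. There the antiproliferative gene Btg1 had 1680, 1704 and 1596 in the knockout against 1336, 1234 and 1347 in the wild type, at 0.35 ± 0.08 with an adjusted p of 0.296. Perp, a p53 target of cell adhesion, had 665, 657 and 740.2 in the knockout against 937, 893 and 864 in the wild type, at -0.38 ± 0.09 with an adjusted p of 0.314. Neither gene overlapped between the genotypes and neither passed. Trp53inp1 was at 0.45 ± 0.18.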

How the data were processed

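Liver RNA of 3 knockout and 3 wild-type pools was hybridised, biotin-labelled, to 1-colour Affymetrix arrays. The deposited intensity of each probe set is linear and came from GCOS 1.4, per the submitters' processing notes. Its signal algorithm and scaling are not given in the sources used. Of 45037 non-control probe sets, 34945 had 1 gene, 932 several and 9160 none, and symbols were updated through Entrez identifiers for 34741. After adding a pseudocount of 5.26, the 25th percentile, log2 values were quantile normalized. "Normalized intensity" is that value turned back to the linear scale. Probe sets whose mean reached the median were tested with limma 3.58.1 in R 4.3.3 (eBayes with an intensity trend, Benjamini-Hochberg adjustment over all tested probe sets), a procedure tested on simulated data. A gene takes its brightest probe set. Values by pool were given for members with an unadjusted p under 0.05 or a place on a list of 14. They were also given for members with a difference of 1 log2 or more above background. Those of Mcm4, Mcm5, Cdt1, Mcm10, Ccnb2, Cdc20 and a dim Cdk6 probe set were chosen after their values were seen. Of each further list up to 4 genes with the smallest p were named. The members and lists were chosen with earlier results of these data known. Alternatives were other normalizations, pseudocounts, filters and variance models, the replicate block, and each pool left out. Pools with the same number deviated together with correlations of 0.13, 0.05 and 0.25, so they were not treated as paired.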

Additional observations from a re-analysis of the deposited data

How the results depend on the processing

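In 15 alternative settings, 6 of which leave out a pool, 0 member probe sets, 0 member genes and 0 genes of the further lists passed, nor did a member when its probe sets were averaged. The lowest adjusted p of a member over all settings was 0.198. The brighter Nfe2l2 probe set was called in each. The number of probe sets called on the whole array was 20 when all probe sets were tested, 19 under a stricter filter (percentile 70) and 18 with no trend, against 32 as reported, 41 with median centring and 40 with array weights, where the cause was not tested, and 18 to 29 with a pool left out. The median log2 difference of the members ran from 0.05 to 0.11 with all pools and from 0.01 to 0.15 with a pool left out. Members at background numbered 9 to 11 under other limits and scalings and 6 to 10 with a pool left out. With a pool left out, the sign of the uncalled difference turned for 15 of the 28 tested members. Among them were Mcm5 (from -0.26 to 0.81), Mcm10 (from -0.54 to 0.26), Cdc20 (from -0.53 to 0.10), Cdk1 (from -0.23 to 0.56), Mcm3 (from -0.19 to 0.42), Ccna2 (from -0.35 to 0.073) and Cdk4 (from -0.035 to 0.19), Mcm5, Cdk1 and Mcm3 without knockout pool 2, Ccna2 without knockout pool 3 or wild-type pool 3 and Cdk4 without wild-type pool 1. With the replicate number as a block, 32 probe sets passed and 0 of them were members, and not every pool correlated best with its own number. Dim members, near an intensity of 14.6, allow no difference to be read.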

Other observations

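A further probe set, annotated to both Tyms and its pseudogene Tyms-ps and so outside the members, had deposited intensities of 67.6, 74.4 and 76.4 in the knockout against 81.0, 55.1 and 77.6 in the wild type. It was above the background limit on all 6 arrays, unlike the 4 probe sets given to Tyms alone, and its log2 difference was 0.17 ± 0.13 (SE, n = 3 per genotype). The share of either transcript in it is uncertain.

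The third pool of both genotypes, bright at the Mcm10 probe set, was low in Alas2, the heme synthesis gene of red cell precursors. Its normalized intensity was 152 in knockout pool 3 and 209.6 in wild-type pool 3, against 835 to 1188 in the other 4 pools. Of the other 5 erythroid genes 4 lay at background, and Klf1 did not follow Alas2, with 64.9 in knockout pool 3, its highest pool, and 32.4 in wild-type pool 3, its lowest. The deviations of the third pools from their genotype means correlated at 0.25 over all tested probe sets. These are values of 6 pools, and no test was made of them.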
